A study of Drosophila melanogaster with 30 samples.

Results

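A set of 8 neuronal activity-regulated genes was followed across the male fly brain, namely Hr38, sr, cbt, kay, puc, CG14186, Arc1 and Arc2. These are genes that neurons switch on when they fire, or relatives and partners of such genes. They were chosen by name, as the rows of the estimated count table whose gene symbol is one of these 8, and all 8 were found among its 17895 gene rows. All 8 also passed the filter on low counts, which left 11269 genes for testing.

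RNA was sequenced from pools of 30 male Drosophila melanogaster brains to give 30 libraries, 3 for each of 10 groups. These joined 5 genotypes with 2 housings, single housing (SH) and group housing (GH). The genotypes were mutants of Or47b, Or67d, fru and dsx, and Canton-S (CS) as the wild type. The Or47b mutant carried Or47b2/3 and the Or67d mutant Or67dGAL4/GAL4, which affect odorant receptors for fly pheromones, in males labelled w+/Y. The fru mutant carried fruLexA/4-40 in w+/Y males and the dsx mutant carried dsxf00683-d07058/f01649-d09625 in w-/Y males, and the products of both genes are transcription factors that direct sexual differentiation. The alleles are carried by the whole animal, so they are not limited to the brain or to the adult, and the dsx males also differ from the others at w. The genotype labels do not say whether the mutants share the genetic background of CS. In each comparison with CS, the mutation and the background of the strain therefore cannot be told apart. The age of the flies and the length of housing are not given in the sources used here. Nothing states that the 3 pools of a group came from separate cultures, so p-values measure the spread between these pools.

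Activity-regulated genes are transcribed within minutes of neuronal firing, after calcium entry and kinase signalling act on transcription factors already present in the nucleus. The first genes to respond often encode transcription factors themselves, and later ones encode proteins that act at synapses. In flies, Hr38 and sr are used as markers of neurons that have recently been active, among them neurons engaged by courtship, and they are the relatives of mammalian Nr4a and Egr genes.

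Total estimated counts ranged from 37.6 M to 121 M per library (median 48.3 M). The lowest estimated count of a listed gene in any library was 67 for Arc2 and at least 834 for the other 7. Mitochondrially encoded genes took 12.4% to 14.1% of gene counts in the dsx libraries and 2.51% to 11.1% in the other libraries. A column headed dissection assigned 6 libraries to AC and 24 to notAC, with no key. The AC libraries were the third GH replicate of CS, the second SH replicate of CS and replicate 3 of both Or47b and both fru groups. The fit carried an AC term. Results among the notAC libraries are given where a call changes with them and for the housing changes of Hr38. The sum of 5 photoreceptor markers was 1384 to 2158 counts per M (CPM, with M for mega, of TMM-scaled gene counts) in AC libraries and 768 to 1545 CPM in notAC libraries. The 5 neuronal markers summed to 5766 to 9933 CPM over all libraries and the 5 glial ones to 913 to 1613 CPM, and no marker of either list was at 0. The targeted genes followed the labels where they could be read. fru stood at 20.5 to 31.1 CPM in the fru libraries, against 159 to 201 CPM in CS. dsx stood at 8.35 to 10.2 CPM in the dsx libraries, against 12.8 to 20.6 CPM in CS. Or67d had 0 counts in all 6 Or67d libraries, where a count of 0 allows up to 3, against 0.145 to 0.511 CPM in CS. Or47b had at most 5 counts over the 3 libraries of any group, so it checks nothing.

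The listed genes differed widely in level and in how far they moved. Adjusted for exon length, CG14186 was the most abundant, with a median of 75.7 CPM per kb over the 30 libraries. Arc1 followed with 32.5, cbt with 20.3, puc with 14.4, kay with 12.1, Hr38 with 9.18 and sr with 6.21 CPM per kb, and Arc2 was lowest with 3.16. The range over the libraries put the 8 in another order. Hr38 moved most, from 25.7 to 553 CPM over all libraries, a 21.5-fold range. sr spanned a 6.17-fold range, from 17.7 to 109 CPM, and Arc1 a 4.65-fold range, from 44.2 to 206 CPM. Arc2 ranged from 1.39 to 4.67 CPM, or 67 to 420 counts, so counting noise weighs more on it than on the others. CG14186 (164 to 445 CPM) and cbt (49.2 to 112 CPM) moved 2.71-fold and 2.28-fold. puc, at 36.3 to 53.9 CPM, and kay, at 82.1 to 117 CPM, were the steadiest, with ranges of 1.48-fold and 1.42-fold.

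Positions are those of the Ensembl annotation of BDGP6. Hr38 (FBgn0014859) lies on 2L from 20683462 to 20714588, sr (FBgn0003499) on 3R from 18090803 to 18135583 and cbt (FBgn0043364) on 2L from 476446 to 479688. kay (FBgn0001297) lies on 3R from 29765995 to 29794113, puc (FBgn0243512) on 3R from 8105332 to 8122294 and CG14186 (FBgn0036935) on 3L from 20098084 to 20103827. Arc1 (FBgn0033926) and Arc2 (FBgn0033928) are neighbours on 2R, from 14357927 to 14360297 and from 14361924 to 14362825, on opposite strands. An exon of Hr38 overlaps CG2617 on the other strand, and whether counting used strand is not given in the sources used here, so reads of this pair may not be told apart. No exon of the other listed genes overlaps an exon of another gene. Arc1 and Arc2 are paralogs, and reads shared between them could be split either way.

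**Figure D1:**
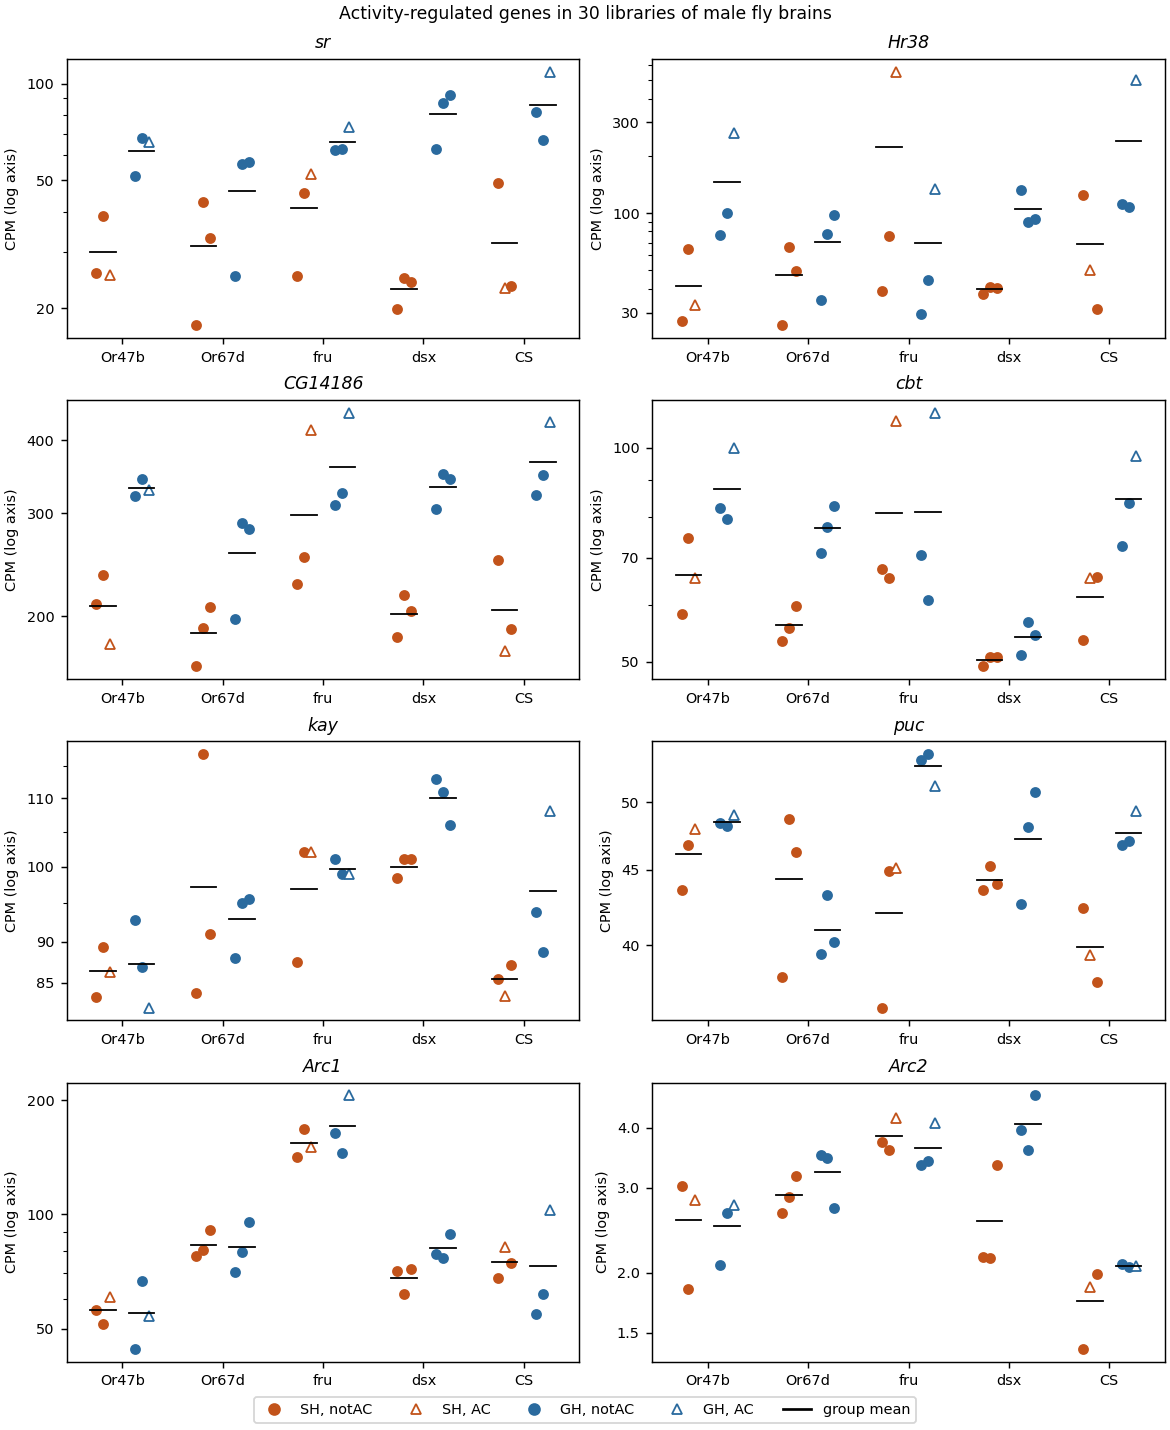
Level of each listed gene in CPM (log axis) in every library, by genotype, with SH (orange) left of GH (blue). Circles are notAC libraries, open triangles AC libraries and bars group means. sr lies at 17.7 to 52.4 CPM in SH and at 25.2 to 109 CPM in GH, while Arc1 stands apart in both fru groups.

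The comparison of SH with GH asked how isolation moves these genes. Averaged over the 5 genotypes, 3 of the 8 genes fell in SH, namely sr, CG14186 and cbt, and none rose. Of all 11269 genes, 0.719% fell in the same comparison. All 8 changes were negative, with a median log2 change of -0.23. Because the listed genes were proposed with earlier results of these data in view, neither count is independent support for a fall.

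The Egr-type zinc finger gene sr showed the largest average change among the 8. In CS, sr had 49.2, 23.1 and 23.4 CPM in SH, against 81.9, 66.9 and 109 CPM in GH. In Or47b it had 25.8, 38.8 and 25.4 CPM in SH, against 51.5, 67.6 and 66 CPM in GH. Each SH library lay below each GH library in both genotypes. No share of all genes with such a separation was computed, so here and below separated groups are no mark of the listed genes. In fru the SH libraries held 25.2, 45.8 and 52.4 CPM, against 62, 62.5 and 73.1 CPM in GH. In dsx they held 19.9, 24.9 and 24.1 CPM, against 62.6, 87.1 and 92.3 CPM in GH, which was the widest gap of the 5 genotypes. Housing groups overlapped for sr in Or67d alone, where SH libraries had 17.7, 42.9 and 33.1 CPM and GH libraries had 25.2, 56.4 and 57 CPM. The averaged log2 change was -1.10 ± 0.152 (SE, edgeR quasi-likelihood test, Benjamini-Hochberg adjusted p = 0.000135), which is 2.15-fold lower in SH. Among the notAC libraries it was -1.02 ± 0.175 (edgeR adjusted p = 0.00526), and it stayed between -1.20 and -1.04 with any 1 library left out.

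CG14186, a gene known by its annotation number only, was the most abundant of the 8 per length and showed a pattern near that of sr. Its levels in CS were 249, 174 and 190 CPM in SH, against 322, 349 and 429 CPM in GH. In dsx they were 184, 217 and 204 CPM in SH, against 305, 350 and 343 CPM in GH. The housing groups did not overlap in CS, Or47b and dsx. They met in Or67d, where the highest SH library had 207 CPM and the lowest GH library 198 CPM, and in fru, where the third SH replicate, an AC library, reached 416 CPM against 310 to 445 CPM in GH. Averaged over the genotypes, CG14186 fell 1.5-fold (log2 change -0.59 ± 0.0826, edgeR adjusted p = 0.000162).

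The TIEG-type zinc finger gene cbt fell less, with an averaged log2 change of -0.28 ± 0.0582 (edgeR adjusted p = 0.0118). It was the averaged call that depended on a setting, since its adjusted p was 0.204 without the AC term. Its SH libraries all lay below its GH libraries in CS, Or47b, Or67d and dsx. The gap in dsx was narrow, with means of 50.2 CPM in SH and 54.1 CPM in GH. In Or67d, whose libraries are all notAC, cbt had 53.4, 55.7 and 59.9 CPM in SH, against 71, 77.3 and 82.9 CPM in GH. In fru the means were 80.9 ± 24.8 CPM in SH and 81.3 ± 27.3 CPM in GH (SD, n = 3 each). Both SDs there come with an AC library far above its group, at 109 CPM in SH and 112 CPM in GH.

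Hr38, the single fly member of the NR4A family of nuclear receptors, had the widest spread within groups, and its averaged change missed the threshold (log2 -0.64 ± 0.276, edgeR adjusted p = 0.431). Among the notAC libraries the averaged change was -0.55. In dsx Hr38 had 37.5, 41.1 and 40.5 CPM in SH, against 132, 90 and 93 CPM in GH. In Or47b it had 27.2, 64.7 and 32.9 CPM in SH, against 76.9, 99.9 and 262 CPM in GH, and these were the 2 genotypes in which the housing groups did not overlap. In CS the SH libraries held 125, 50.3 and 31.4 CPM, against 111, 108 and 498 CPM in GH, and the first SH replicate exceeded 2 of the GH libraries. Or67d gave 25.7, 66.2 and 49.4 CPM in SH, against 34.7, 77.5 and 97.9 CPM in GH. The fru groups ran the other way in their means, with 38.8, 75.3 and 553 CPM in SH and 29.5, 44.4 and 134 CPM in GH. The values of 498, 553, 262 and 134 CPM all belong to AC libraries.

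The other 4 genes moved little with housing. The averaged log2 change of puc, which encodes a phosphatase that switches off the kinase JNK, was -0.13 ± 0.0373 (edgeR adjusted p = 0.123). puc libraries in SH lay below those in GH in CS, Or47b and fru, for instance at 36.3, 44.9 and 45.1 CPM in fru SH, against 53.4, 53.9 and 51.3 CPM in fru GH. kay, the fly Fos gene, whose protein pairs with Jra to form AP-1, had an averaged log2 change of -0.06 ± 0.0404 (adjusted p = 0.71). Arc1, whose protein forms virus-like capsids that carry RNA between cells, gave -0.06 ± 0.0699 (adjusted p = 0.876). Its paralog Arc2 gave -0.19 ± 0.084 (adjusted p = 0.451) by edgeR. The dsx genotype held the widest Arc2 gap, with 2.16, 2.15 and 3.35 CPM in SH, against 3.95, 3.59 and 4.67 CPM in GH (log2 -0.67, edgeR adjusted p = 0.614).

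**Figure D2:**
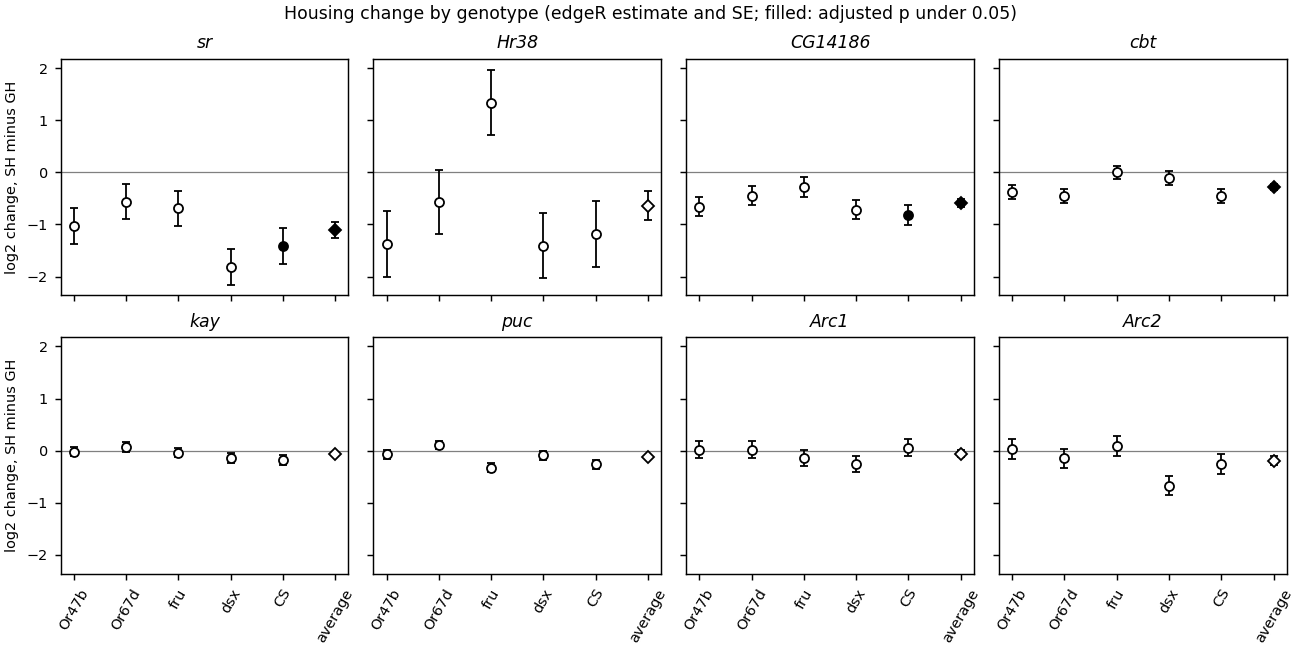
Log2 change of each listed gene in SH minus GH (edgeR estimate, bars are SE) in each genotype (circles) and averaged over the 5 genotypes (diamonds). Filled symbols passed an adjusted p under 0.05. sr is below 0 in all 5 genotypes, with -1.81 in dsx and -0.56 in Or67d as its extremes, and Hr38 is above 0 in fru alone.

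Tested genotype by genotype, fewer of the 8 genes passed. In CS, sr (log2 -1.41 ± 0.342, edgeR adjusted p = 0.0351) and CG14186 (-0.82 ± 0.185, adjusted p = 0.023) fell in SH, which is 2 of 8 against 0.914% of all genes that fell. These calls rest on few libraries. Among the notAC libraries, 2 per group, the changes were -1.03 (adjusted p = 0.383) for sr and -0.60 (adjusted p = 0.121) for CG14186. With the mitochondrial share as a covariate, sr lost its call (-1.24, edgeR adjusted p = 0.158) and CG14186 kept its own. That share was 2.99% to 4.56% in CS SH and 4.42% to 10.3% in CS GH, so the covariate partly overlaps housing in CS. The count of called genes in CS was 0 without the third GH replicate or the second SH replicate, both AC, and 1 without the first GH replicate or the third SH replicate. It was 2 without the second GH replicate and 3, with Hr38 added, without the first SH replicate. It was also 0 without the AC term and 0 with the CS groups fitted alone. Fewer of all genes were called in both cases than in the fit with the AC term and all 30 libraries. cbt in CS had a log2 change of -0.45 (adjusted p = 0.0683) and Hr38 one of -1.18 (adjusted p = 0.334) in the same edgeR fit. The Hr38 value was -0.48 among the notAC libraries, -2.41 without the first SH replicate and -0.60 without the second.

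None of the 8 was called for housing in the mutants by edgeR, where 0.213% of all genes were called in Or47b, 0.0266% in Or67d, 0.169% in fru and 0.0177% in dsx, in either direction. At an unadjusted p under 0.05 there were 4 of the 8 in Or47b (sr, Hr38, CG14186 and cbt), 2 in Or67d (CG14186 and cbt), 2 in fru (Hr38 and puc) and 4 in dsx (sr, Hr38, CG14186 and Arc2). Of all genes, 4.29%, 3.02%, 10.5% and 3.39% met that threshold in the 4 mutants, in the same order. DESeq2's Wald test called puc in fru and sr in dsx, and limma on the deposited normalized values called none in these 4 mutants. DESeq2 also called more of all genes than edgeR in each of the 4 mutants. The change of sr was -1.03 ± 0.34 in Or47b, -0.56 ± 0.337 in Or67d, -0.69 ± 0.336 in fru and -1.81 ± 0.346 in dsx (edgeR adjusted p = 0.0977). With DESeq2's Wald test, the dsx change of sr had an adjusted p of 0.00195. CG14186 gave -0.66 in Or47b, -0.45 in Or67d, -0.28 in fru and -0.72 in dsx. For cbt these log2 changes were -0.38 in Or47b, -0.45 in Or67d and -0.11 in dsx. For Hr38 they were -1.38, -0.57 and -1.41 in Or47b, Or67d and dsx, or -0.95, -0.56 and -1.40 among the notAC libraries. In fru the Hr38 change was 1.34 ± 0.627 (edgeR adjusted p = 0.459), where the notAC libraries gave 0.62 and the libraries without the third SH replicate gave 0.31. Arc1, Arc2, kay and puc are shown for every genotype in the plot of housing changes.

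Whether the housing change differs between a mutant strain and CS was tested as the mutant's change minus that of CS. No listed gene was called in any of the 4 tests by edgeR, and of all genes 0.0177% were called for Or47b, 0.177% for Or67d, 0.222% for fru and 0.00887% for dsx. At an unadjusted p under 0.05 there were 0, 1, 3 and 0 of the 8, against 8.30%, 14.3%, 8.12% and 13.4% of all genes, and neither DESeq2 nor limma called any. The largest difference was that of Hr38 in fru, 2.52 ± 0.902 on the log2 scale (edgeR adjusted p = 0.404), where 1 SH library stood at 553 CPM. It was 1.09 among the notAC libraries, and 1.65 to 3.71 with a library of fru or CS left out, the lowest without the third fru SH replicate and the highest without the first CS SH replicate. For sr the differences were 0.38 in Or47b, 0.85 in Or67d, 0.73 in fru and -0.40 in dsx, each with an SE of 0.475 to 0.477, so changes of this size could not be told from 0. The smallest adjusted p of these tests was 0.202, for puc in Or67d (0.37 ± 0.118). puc had 38.1, 48.7 and 46.3 CPM in Or67d SH against 39.5, 43.3 and 40.2 CPM in GH, and 42.4, 39.4 and 37.8 CPM in CS SH against 46.8, 47.1 and 49.3 CPM in GH.

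Within groups, several of these genes varied together from pool to pool. Deviations of log2 CPM from the group means were correlated over the 30 libraries for the 28 pairs of listed genes. Of the 28, 12 had a Benjamini-Hochberg adjusted p of Pearson's r under 0.05 (100000 permutations, 2-sided), and all 12 were positive. The 3 deviations of a group sum to 0, so the points are not fully independent. AC differences were left in the deviations, and no share over all gene pairs was computed. The count of 12 is therefore no mark of the listed genes. Hr38 and CG14186 had r = 0.84 (rho = 0.78, adjusted p of r = 9.3e-05 by permutation) and sr and CG14186 had r = 0.78 (rho = 0.80, the same adjusted p). The raw p of both was 1e-05, the smallest that the permutations can give. Without the 2 libraries farthest from the median of the first gene, these were 0.78 and 0.76, and within the 24 notAC libraries 0.77 and 0.88.

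sr and puc gave r = 0.77 (rho = 0.74, adjusted permutation p = 0.00011), and 0.83 within notAC. sr and Hr38 gave 0.72 (rho = 0.74, adjusted permutation p = 9.3e-05), and 0.85 within notAC. The link of Hr38 with cbt, at 0.71 over all libraries (rho = 0.61, adjusted permutation p = 0.00011), was 0.03 within the notAC libraries, so it did not hold there. sr with kay gave 0.61 and kay with puc 0.59. Arc2 correlated with no listed gene past the threshold by Pearson's r, and Arc1 with cbt alone (0.44, adjusted permutation p = 0.037), a value of 0.26 within notAC. Of the 28 pairs, 9 passed within the notAC libraries. Groups that lose an AC library keep only a pair of libraries, whose deviations mirror each other. These points are less independent than those of all libraries, so the permutation p-values there may be too small.

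**Figure D3:**
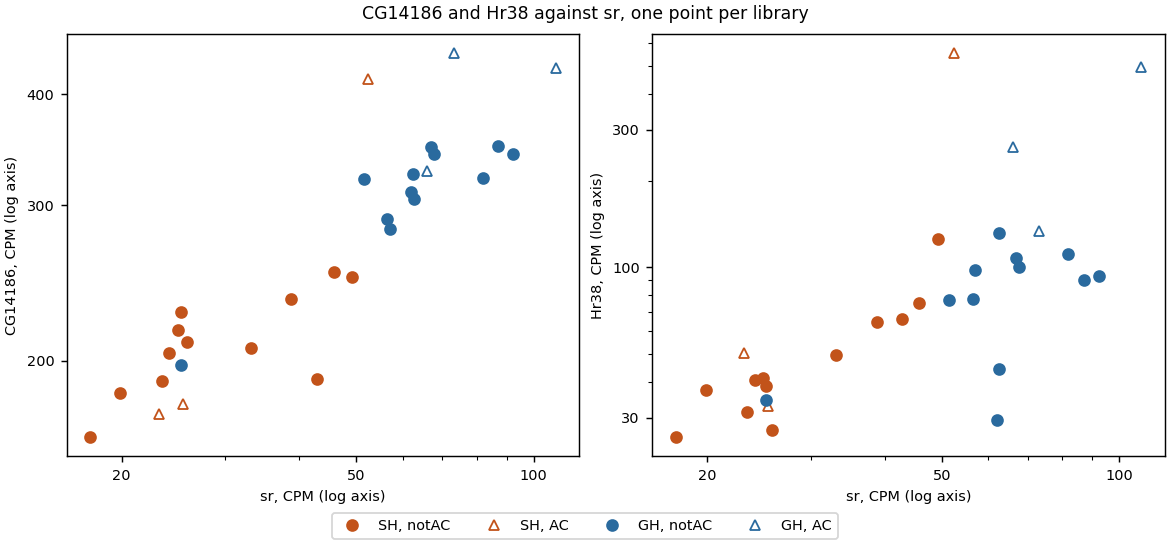
CG14186 (left) and Hr38 (right) against sr in CPM, both axes logarithmic, with 1 point per library. SH libraries are orange and GH libraries blue, and open triangles are AC libraries. CG14186 follows sr across both housings, and 4 AC libraries carry Hr38 levels of 134 to 553 CPM.

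**Figure D4:**
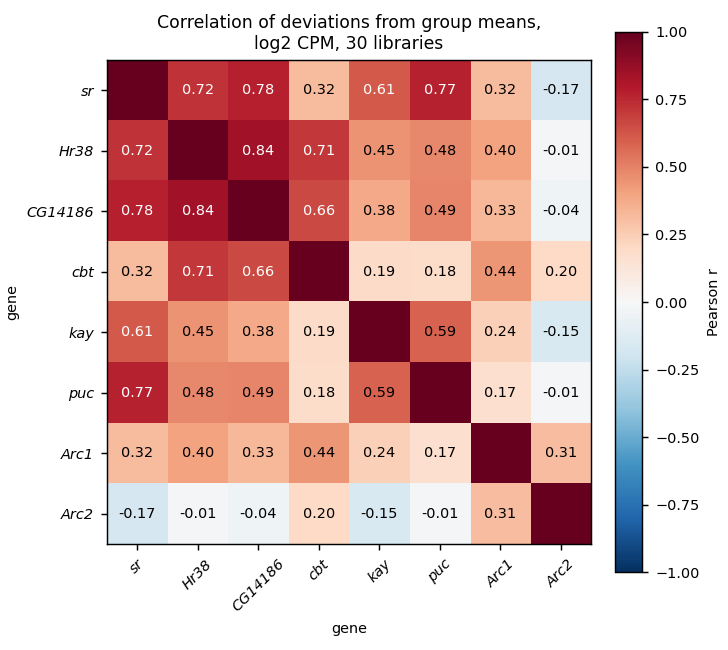
Pearson's r between the listed genes over 30 libraries, from deviations of log2 CPM from group means. The values among sr, Hr38 and CG14186 run from 0.72 to 0.84, and the Arc2 row lies between -0.17 and 0.31.

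Likeness was also measured on log2 CPM itself, with group differences kept, over all 11269 tested genes. The gene most like sr was CG14186 (r = 0.91 over 30 libraries), and CG14186 also ranked first for Hr38 (r = 0.77). Within the notAC libraries, Hr38 had r = 0.68 with CG14186 and 0.78 with sr, so CG14186 did not rank first for Hr38 there. Outside the 8, the nearest to sr were CG7218 (0.85), the neuropeptide gene Dsk (0.80), raw (0.79), CG17778 (0.76) and CG44247 (0.73). The nearest to Hr38 were CG46385 (0.74), the glycerol kinase gene Gk2 (0.72), CG5107 (0.67), CG8910 (0.64) and Fer3 (0.63). For Hr38 these values were lower within the notAC libraries, at 0.65, 0.38, 0.30, 0.52 and 0.59 in the same order.

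Comparing each mutant with CS in the same housing brought a different set forward. The Arc genes were higher in fru brains in both housings. All 4 mutants share the same CS libraries, so their changes are given side by side and not compared with each other. In fru, Arc1 had 142, 168 and 151 CPM in SH, against 67.8, 81.8 and 74.6 CPM in CS SH. In GH it had 164, 145 and 206 CPM in fru, against 54.5, 61.5 and 103 CPM in CS. Every fru library exceeded every CS library, and the fru groups stood above all other groups for Arc1. The log2 change was 1.05 ± 0.157 in SH (edgeR adjusted p = 4.41e-05) and 1.25 ± 0.158 in GH (adjusted p = 3.96e-06), or 2.07-fold and 2.38-fold. Among the notAC libraries it was 1.12 in SH and 1.42 in GH, and both calls held there (adjusted p = 0.000114 and 8.48e-06).

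Arc2 rose in fru as well, with 3.74, 3.6 and 4.2 CPM in fru SH, against 1.39, 1.87 and 1.99 CPM in CS SH (log2 1.13 ± 0.19, edgeR adjusted p = 0.00017). In GH it had 3.35, 3.42 and 4.1 CPM in fru, against 2.09, 2.06 and 2.07 CPM in CS (log2 0.80 ± 0.189, adjusted p = 0.00455). The GH call was lost among the notAC libraries (log2 0.71, adjusted p = 0.0775). So 2 of the 8 genes were called in fru in each housing, against 13.6% of all genes in SH and 17.0% in GH. In fru SH, CG14186 had a log2 change of 0.51 (edgeR adjusted p = 0.0698) and cbt one of 0.35 (adjusted p = 0.0741). Without the first CS SH replicate, Hr38 (2.02) and CG14186 (0.71) were also called, which made 4 in SH. CG14186 was also called without the first fru SH replicate and by DESeq2, and cbt without the third CS SH replicate. Haemocyte markers moved with the fru genotype. Of the 4 tested, 3 were higher in fru SH and 4 in fru GH, and the 5 markers summed to 68.4 to 174 CPM in fru SH against 28.3 to 53.7 CPM in CS SH, and to 70.7 to 130 CPM in fru GH against 35.1 to 37.5 CPM in CS GH. Other lists moved too. In fru SH, 4 of 5 muscle markers were lower and 4 of 11 tested JNK and stress targets were higher. In fru GH, 0 of 5 muscle markers and 2 of 11 of these targets were called. Glial markers summed to 1104 to 1311 CPM in fru GH against 1371 to 1470 CPM in CS GH. In SH these sums were 913 to 1313 CPM in fru and 1096 to 1478 CPM in CS. The part of these lists in the Arc results was not tested. In such bulk samples, a change in the number of cells of a type and a change in RNA per cell cannot be told apart.

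The CS groups had the lowest Arc2 means of all 10, and Arc2 also rose in dsx and Or67d. In dsx it stood at 2.56 ± 0.691 CPM in SH, against 1.75 ± 0.319 CPM in CS SH (SD, n = 3 each), a log2 change of 0.61 ± 0.194 (edgeR adjusted p = 0.0149). In GH it stood at 4.07 ± 0.547 CPM in dsx, against 2.07 ± 0.0162 CPM in CS (log2 1.03 ± 0.192, edgeR adjusted p = 0.000458). The SH call was lost without the third dsx SH replicate (log2 0.36, adjusted p = 0.155) and without the first CS SH replicate (0.48, adjusted p = 0.0848). It was also lost among the notAC libraries and with the mitochondrial share as a covariate, although the log2 change was no smaller than 0.60 in either (0.60, adjusted p = 0.052, and 0.67, adjusted p = 0.177). The mitochondrial share was 12.9% to 14.1% in dsx SH and 2.99% to 4.56% in CS SH, so this covariate overlaps the genotype. In Or67d, Arc2 had 2.66, 2.87 and 3.17 CPM in SH and 3.51, 3.46 and 2.73 CPM in GH. The log2 change against CS was 0.79 ± 0.194 in SH (edgeR adjusted p = 0.0131) and 0.70 ± 0.193 in GH (adjusted p = 0.0215). Both calls were lost among the notAC libraries, with log2 changes of 0.78 in SH (adjusted p = 0.0676) and 0.63 in GH (adjusted p = 0.0959). In SH the call was also lost without the third Or67d SH replicate or the first CS SH replicate. In GH it was also lost without replicate 1 or 2 of Or67d and without replicate 1 or 3 of CS.

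In Or67d, Arc2 was the 1 listed gene called, against 5.64% of all genes in SH and 9.77% in GH. The other 7 had log2 changes of -0.29 to 0.25 in SH and -0.89 to 0.28 in GH. Of these, kay in SH (0.20) and sr (-0.85), CG14186 (-0.45) and puc (-0.20) in GH had an unadjusted p under 0.05, as had 16.4% of all genes in SH and 24.2% in GH. Arc1 in Or67d GH, at 0.28 (edgeR adjusted p = 0.294), was called among the notAC libraries (0.49, adjusted p = 0.0426) and without the third CS GH replicate, an AC library (0.50, adjusted p = 0.0364), and Arc2 was called in neither.

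In the Or47b mutant none of the 8 was called by edgeR, against 8.43% of all genes in SH and 3.79% in GH. At an unadjusted p under 0.05 there were 3 in SH (Arc1, Arc2 and puc) and 1 in GH (Arc1), against 24.9% of all genes in SH and 15.8% in GH, and neither DESeq2 nor limma called any. Arc1 there had 56, 51.3 and 60.4 CPM in SH, below the 67.8 to 81.8 CPM of CS SH (log2 -0.42, edgeR adjusted p = 0.0951), and its GH change was -0.37 (adjusted p = 0.235), or -0.06 among the notAC libraries. Arc2 changes in Or47b were 0.55 in SH (adjusted p = 0.0721) and 0.26 in GH (adjusted p = 0.548) by edgeR. The other 6 ran from -0.75 for Hr38 to 0.21 for puc in SH, and from -0.55 for Hr38 to 0.05 for cbt in GH. Arc2 counts were low throughout, with sums of 263 to 898 over the 3 libraries of a group.

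In dsx, 2 of the 8 genes were called in each housing, where calls were common, at 42.1% of all genes in SH and 21.7% in GH. cbt fell in dsx GH, with 51, 56.9 and 54.5 CPM, against 72.7, 83.7 and 97.5 CPM in CS GH (log2 -0.51 ± 0.133, edgeR adjusted p = 0.00753). With the mitochondrial share as a covariate the change was -0.46 and missed the threshold (adjusted p = 0.0599), as it did without the second CS GH replicate (-0.44, adjusted p = 0.0522). In SH, cbt stood at 50.2 ± 0.904 CPM in dsx and 61.7 ± 6.87 CPM in CS (SD, n = 3 each; log2 -0.17, edgeR adjusted p = 0.31). The dsx groups had the lowest cbt means of all 10. kay rose in dsx SH, with 98.4, 101 and 101 CPM, against 85.4, 83.5 and 87.2 CPM in CS SH (log2 0.24 ± 0.0922, edgeR adjusted p = 0.038), but the call was lost with any 1 of these 6 libraries left out and among the notAC libraries, and with the mitochondrial share as a covariate the change was 0.10 (adjusted p = 0.681). As for Arc2, the mitochondrial share overlaps the dsx genotype, so changes under that covariate decide little about these calls. In GH the log2 change of kay was 0.20 (edgeR adjusted p = 0.129). Arc1 in dsx GH had 0.27 (edgeR adjusted p = 0.241), and it was called among the notAC libraries (0.48, adjusted p = 0.0233), with the 2 groups fitted alone (0.49, adjusted p = 0.00532) and without the third CS GH replicate (0.49, adjusted p = 0.0204). The 6 listed genes not called in a housing ran from -0.54 to 0.16 in dsx SH and from -0.31 to 0.27 in dsx GH, with Hr38 lowest in both.

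Marker lists moved in dsx as well. Of 15 heat shock genes, 4 were higher in dsx SH and 9 in dsx GH, with median log2 changes of 0.36 and 1.14. Of the 5 neuronal markers 4 were higher in SH and 1 in GH, and they summed to 9597 to 9933 CPM in dsx SH against 5766 to 7376 CPM in CS SH, and to 9192 to 9483 CPM in dsx GH against 7205 to 8385 CPM in CS GH. Muscle markers were lower in dsx SH for 4 of 5, with sums of 7.34 to 22.6 CPM against 36.5 to 139 CPM in CS SH. Muscle sums were 8.26 to 42.7 CPM in dsx GH and 41.4 to 120 CPM in CS GH. In each housing 2 of 5 fat body and 2 of 4 haemocyte markers were higher. Their part in the dsx changes was not tested.

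In the fits of all 30 libraries Hr38 was called in no mutant by edgeR, with changes in fru of 0.82 ± 0.647 in SH (adjusted p = 0.442) and -1.70 ± 0.626 in GH (adjusted p = 0.0655). The SH change was -0.46 among the notAC libraries and -0.07 without the third fru SH replicate. The GH change was called with the 2 groups fitted alone (-1.67, edgeR adjusted p = 0.00248), and it was -1.56 among the notAC libraries (adjusted p = 0.0913).

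**Figure D5:**
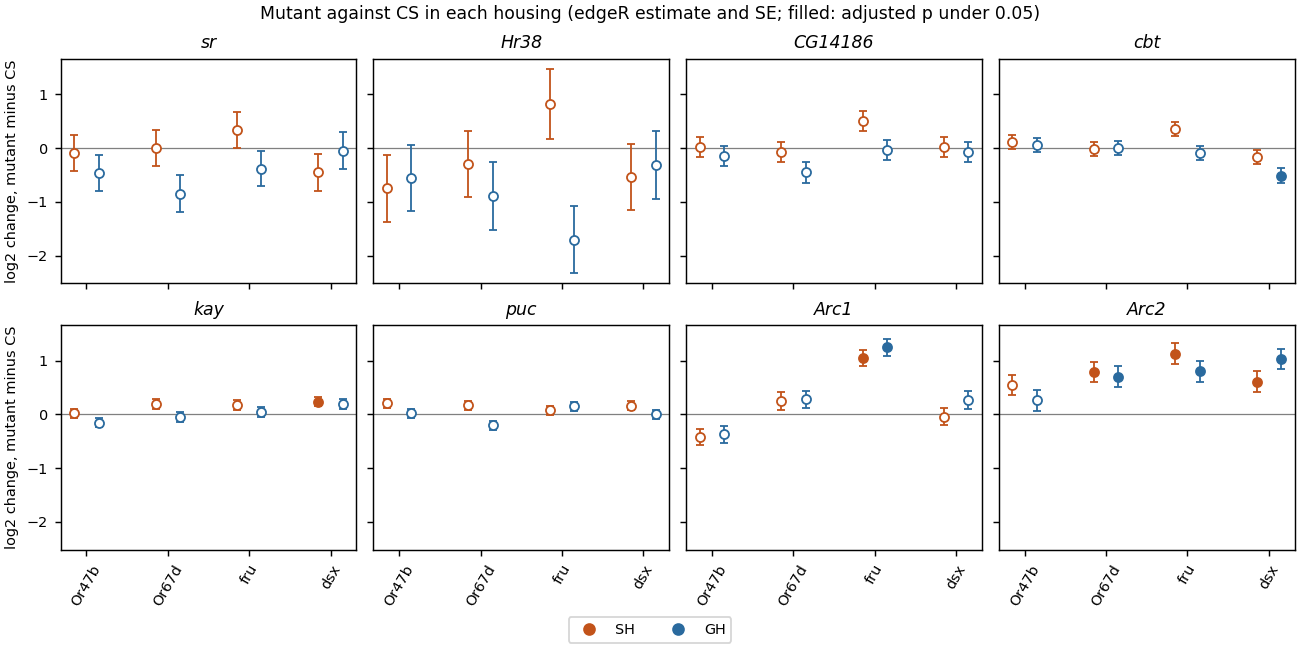
Log2 change of each listed gene in mutant minus CS (edgeR estimate, bars are SE), with SH (orange) left of GH (blue) for each mutant. Filled symbols passed an adjusted p under 0.05. Arc1 is raised in fru in both housings (1.05 and 1.25), and Arc2 is raised in fru, dsx and Or67d.

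The AC libraries differed from the others in 3 of the 8 genes, against 54.7% of all genes, so a call for this term is no mark of the listed genes. Hr38 was higher in AC, by 1.54 ± 0.394 on the log2 scale (edgeR adjusted p = 0.00219), cbt by 0.38 ± 0.0789 (adjusted p = 0.000316) and Arc1 by 0.27 ± 0.0952 (adjusted p = 0.0211). The Hr38 call was lost with the replicate number as a block beside the AC term (1.29, adjusted p = 0.0698) and with limma on the deposited normalized values (0.01, adjusted p = 0.998), by which cbt (-0.12) and Arc1 (-0.01) were not higher in AC either. The Arc1 call was lost without the AC library of CS GH (adjusted p = 0.168) or that of fru GH (0.0732). The Hr38 difference was not uniform. In SH the AC library of fru held 9.7 times the mean of the other fru libraries, whereas those of CS and Or47b held 0.644 and 0.715 times. In GH the AC libraries held 4.56 times the mean of the others in CS, 2.96 times in Or47b and 3.64 times in fru. sr had a log2 change of 0.11 ± 0.206 (edgeR adjusted p = 0.668), which turned to -0.13 with the replicate block and -0.11 with limma on the deposited values. The other 4 genes not called, kay, puc, Arc2 and CG14186, gave 0.03 to 0.18. In the same term all 5 photoreceptor markers, all 4 tested haemocyte markers, 4 of 5 muscle markers and 3 of 5 fat body markers were higher. Muscle markers summed to 50.5 to 139 CPM in AC libraries and 7.34 to 107 CPM in notAC libraries, and fat body markers to 904 to 3122 CPM in AC and 450 to 1713 CPM in notAC. Haemocyte markers summed to 37 to 174 CPM in AC and 26.8 to 75.4 CPM in notAC. Their part in the Hr38 levels was not tested.

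Genes of the same pathways were read from lists made by function. Of 12 other activity-regulated candidates, 10 were tested, and CG11221 and CG30497 were too low. In the averaged comparison 2 of the 10 fell in SH, CG17778 (log2 -0.28, edgeR adjusted p = 0.00299) and CG14024 (-0.21, adjusted p = 0.00944), and the list had a median of -0.09. In CS 4 fell, CG13055 (-0.70), CG17778 (-0.61), CG14024 (-0.59) and CG8910 (-0.37). That is 4 of 10 against the 0.914% of all genes that fell, with a median of -0.23 against 0.00 for all genes. None of the 10 was called for housing in Or47b, Or67d, fru or dsx, with medians of -0.08, 0.04, -0.01 and -0.12. The list was chosen with earlier results of these data known, so these counts are no independent support for a fall. In the same CS comparison the 5 neuronal markers, none of them called, were all negative with a median of -0.20. Of 21 tested genes of calcium, CREB, MAPK and SRF signalling to the nucleus, 1 fell on average, Mkp3 (-0.27, adjusted p = 0.0108), which encodes a phosphatase of the ERK kinase, and none was called in CS, where the list had a median of -0.25 with 16 of 21 negative. The 14 genes of the JNK pathway, which acts upstream of kay and puc, had no call for housing in CS or on average, nor had 11 tested JNK and stress targets, 11 relatives of Hr38 among hormone receptor genes or 15 heat shock genes. Median averaged changes were -0.02 for the JNK pathway, 0.05 for its targets and -0.09 for heat shock genes. By genotype the heat shock genes differed in direction, all 15 being negative in dsx (median -0.77) and 13 of 15 positive in fru (0.42), with none called in either. Of the 8 core clock genes, cry (0.90) and Clk (0.85) were higher in CS SH and vri (-1.60) and tim (-1.09) lower, and on average Clk (0.32) and cry (0.20) were higher and vri (-0.54) lower. Among marker lists, the averaged housing comparison called 1 of 5 fat body genes, Lsp2 (2.00 ± 0.292, adjusted p = 0.000267), and none of the neuronal, glial, photoreceptor, haemocyte or muscle markers. Fat body markers summed to 493 to 3122 CPM in SH and 450 to 1562 CPM in GH, and the part of this difference in the fall of sr, CG14186 and cbt was not tested.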

How the data were processed

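RNA from pools of 30 male brains, dissected in phosphate-buffered saline, was made into stranded libraries of polyadenylated RNA and sequenced as paired-end reads, per the labels' protocols. The authors deposited a table of expected (estimated) counts per feature, of which 11.9% of values were not whole, and the submitters' processing notes name STAR, Salmon, DESeq2 and BDGP6 with no versions. They also deposited a table of normalized values, treated here as a signal with no stated unit, for 11335 features. Divided by the estimated counts, the deposited signal of Hr38 ran from 0.362 to 1.84 over the libraries, and that of kay from 0.489 to 1.37, so its scaling differed between genes, and its making is not given in the sources used here. Another deposited table gives the AC or notAC class. Every column of values matched 1 sample by a line of the sample's description, and no 2 libraries held identical counts. The AC or notAC classes were matched by the genotype, housing and replicate number in the sample titles.

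Of 24278 features, the 17895 gene rows were kept, and 17855 of them matched the annotation. The remaining features held 0.6% to 1.38% of counts. Tests used edgeR 4.0.16 under R 4.3.3 on the estimated counts, rounded to whole numbers. filterByExpr left 11269 genes, scaling was TMM, and 1 quasi-likelihood fit of all 30 libraries had a term per group and an AC term, with 19 residual degrees of freedom. The Benjamini-Hochberg adjustment ran over all genes of a comparison, with 0.05 as the threshold for a call. CPM are per M of TMM-scaled gene counts, and log2 CPM used a prior count of 2. The pipeline was checked on simulated counts. The tested alternatives used limma 3.58.1 and DESeq2 1.42.0 among others.

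All 8 genes were to be named in each comparison, and those without a call are in part given by their range. From each list, called genes in the housing comparisons were named up to 4, and for likeness the 5 nearest genes outside the 8. The 8 genes and all lists were chosen with earlier results of these data known, and Jra is in 2 lists. Promoter motifs and sequences were not analysed here.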

Additional observations from a re-analysis of the deposited data

How the results depend on the processing

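Of 1476 recomputed log2 changes, 1381 kept their direction and side of the threshold, 51 lost a call, 29 gained one and 15 turned sign. Of 392 recomputed counts, 345 stayed within 1.5 times. The averaged housing calls of sr and CG14186 held in all 10 other settings and with each of the 30 libraries left out, and so did Arc1 in fru in both housings and Arc2 in dsx GH under every alternative run for them. The count of 3 averaged calls was 2 without the AC term and 3 with any library left out.

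Counts of called genes that moved by over 1.5 times were as follows, and the causes were not tested. The number of all genes called moved with the setting too. With the groups compared alone it was 17 for housing in CS, against 210 in the report. For housing in dsx it was 57 with the groups compared alone, against 2 in the report. A moved count is therefore no mark of the listed genes. For housing in CS (2 in the report) the count was 1 with all features, 0 without the AC term, 0 among the notAC libraries, 1 with the mitochondrial share, 0 with the groups compared alone and 0 to 3 with a library left out. For housing in the mutants (0 each), the groups compared alone gave 1 in Or47b and 3 in dsx (Hr38, sr and CG14186), DESeq2 gave 1 in fru and 1 in dsx, and leaving out a library gave 0 to 1 in fru. For the mutants against CS, a left-out library gave 0 to 1 for Or47b in SH and in GH, 0 to 1 for Or67d in SH and in GH, 2 to 4 for fru in SH, 0 to 1 for dsx in SH and 1 to 4 for dsx in GH. The notAC libraries gave 0 for Or67d in SH, 1 for fru in GH and 0 for dsx in SH. The groups compared alone gave 1 for Or47b in SH, 0 for Or67d in both housings, 1 for dsx in SH and 4 for dsx in GH. The mitochondrial share gave 0 for Or67d in GH, 0 for dsx in SH and 1 for dsx in GH, no AC term gave 0 for Or67d in GH, and no filter gave 1 for dsx in SH. For the difference in housing change between Or67d and CS, a left-out library gave 0 to 1. For the AC term, limma on the deposited normalized values gave 0.

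Replicate numbers were not taken as pairs in the fit. In no genotype did the deviations of all 3 same-numbered pairs of SH and GH libraries correlate by over 0.1. Nor did every SH library of a genotype correlate best with its own number. Same-numbered r ran from -0.224 to 0.319 in CS, 0.0739 to 0.434 in Or47b and 0.0761 to 0.52 in fru. AC differences were left in these deviations, and those of a group sum to 0, so the check cannot exclude pairing. With the replicate block in place of the AC term the count for housing in CS was 1 (CG14186), and for the AC term with the replicate block beside it the count was 1 (cbt). The replicate block moved no other count by over 1.5 times.

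These changes turned sign. cbt in fru housing was 0.01 among the notAC libraries, 0.01 with limma on the deposited values and 0.01 with the groups compared alone, and -0.15 to 0.17 with a library left out. Averaged over genotypes, Arc1 was 0.00 among the notAC libraries. Hr38 in fru SH against CS was -0.46 among the notAC libraries and -0.07 without the third fru SH replicate, with a range up to 2.02 over the libraries left out. The sr difference in housing change between dsx and CS was -0.67 to 0.09 with a library left out, with 0.09 reached without the first CS SH replicate. With limma on the deposited values, the AC changes were -0.01 for Arc1, -0.12 for cbt, -0.11 for sr and -0.14 for CG14186, and 0.01 for Hr38. The AC change of sr was also -0.13 with the replicate block.

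With 3 pools per group, the SE of sr in a single genotype was 0.336 to 0.346 on the log2 scale, and that of Hr38 0.614 to 0.631. Changes well above these SEs also went uncalled, such as that of sr in dsx housing (-1.81, edgeR adjusted p = 0.0977). A missing call for these genes therefore does not show that there was no change. Arc2 had 67 to 420 counts per library. Without a known meaning of AC, its term and the biology of those 6 libraries cannot be told apart.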
